A study of Mus musculus with 3 samples.

Results

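The transcripts described here encode 10 factors of nuclear mRNA export, among 31053 genes in the count tables of 3 single-cell libraries of mouse testis. They were chosen by name, as the genes Xpo1, Ran, Ranbp2, Nxf1, Nxt1, Alyref, Ddx39b, Thoc1, Thoc2 and Ddx19a, and each of the 10 had UMIs (unique molecular identifiers, 1 for each captured transcript) in the cells kept from each library. The study asked how loss or mutation of GRTH (Ddx25), a DEAD-box RNA helicase of meiotic and haploid germ cells, alters their transcripts. The libraries are labelled WT, GRTH-KO (here KO), in which the Grth gene was knocked out, and GRTH-KI (here KI), in which a human GRTH gene with a missense change replaces the mouse gene, all from testes of C57BL/6 mice labelled as 8 weeks old. There was 1 library for each genotype, made from pooled testes, so differences between genotypes cannot be told apart from differences between libraries, and no test across animals was possible. Sperm formation stops in both mutants before elongation is complete, so spermatids of one name are not matched in age between the libraries.

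An mRNA leaves the nucleus with export factors loaded on it during transcription, capping and splicing. The TREX complex, in which the helicase DDX39B and the adaptor ALYREF work with the THOC proteins, hands the mRNA to the receptor NXF1 and its partner NXT1, and on the cytoplasmic side of the pore the helicase DDX19 strips the receptor off. A parallel route uses the exportin CRM1, made from Xpo1, which binds its cargo together with the GTP-bound form of Ran and releases it near the pore filaments that hold RANBP2. Male germ cells silence the X chromosome at the pachytene stage of meiosis, and many X-linked housekeeping genes have autosomal copies that are used there.

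Total UMIs per library lay between 73150373 and 91388296, and 5862 WT, 4068 KO and 1570 KI cells were kept, with a median of 5130, 3969.5 and 11751 UMIs per cell. Cells were grouped without the export genes and named from markers, which set WT, KO and KI cells in a series of 6 clusters. Early spermatocyte-like (early SP-like) cells of cluster 12 came first, followed by the spermatocyte-like (SP-like) clusters 6, 13 and 2, the round spermatid-like (RS-like) cluster 9 and the elongating spermatid-like (ES-like) cluster 7. Sycp1, of the synaptonemal complex, stood at 2123 CPM (UMIs in 1000000) in WT cluster 12, Piwil1 at 680 in cluster 6, the cyclin gene Ccna1 at 334 in cluster 13, Acrv1, of the acrosome, at 708 in cluster 9 and Tnp2, a transition protein, at 47896 in cluster 7. Neither end of the spermatocyte series was pure. At a finer clustering, of resolution 0.6, cluster 12 split into 307 early SP-like cells and 99 cells like spermatogonia (SG-like), the dividing cells before meiosis. The 16 RS markers already summed to 3360, 3271 and 2805 CPM in cluster 2 of WT, KO and KI, against between 38.5 and 116 in clusters 6 and 13, so cluster 2 lay next to the spermatids. In place of the 1531 cells of cluster 2, the finer clustering had an SP-like cluster of 906 cells, with Gkap1, Pabpc2 and Ran still leading. It also had an unnamed cluster of 628 cells, which scored highest for RS markers, at 0.0832, with 3 of 16 raised. The RS-like class also held cluster 1, whose cells had a median of 0.279 times the median UMIs of their own library. Of the ES-like class, WT had 2330 cells, mostly outside cluster 7, and KO and KI had 424 and 164, mostly inside it. Clusters 5, 8, 10 and 14, of 991, 724, 579 and 117 cells, could not be named and entered no class. Cluster 10 held 160 WT, 394 KO and 25 KI cells. In cluster 5 the 15 spermatocyte markers summed to 8385, 10027 and 11155 CPM in WT, KO and KI, against 10317, 10932 and 10678 in cluster 6. In cluster 2 they summed to 6078, 6974 and 7006. Its score for them was 0.281, against 1.08 in cluster 6 and 1.21 in cluster 13, so its name is the weakest of the SP-like ones. All levels are given in CPM, the UMIs of a gene in 1000000 UMIs of the cluster or class, counted at 3′ ends and so not divided by length, and all intervals are exact 95% intervals that cover counting error only.

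The targeted gene was near 0 in KO, as its label says, and UMIs were counted for it in KI. Since KI carries a human gene, those UMIs may come from parts of its transcript that map to mouse Ddx25, so its levels in KI and WT are not comparable. Ddx25 stood at 216, 0.282 and 98.7 CPM in SP-like cells of WT, KO and KI. RS-like cells of WT held 915 UMIs of it and those of KI 653, or 111 and 132 CPM, and KO held 0 UMIs, where 3 would be 0.542 CPM. Barcodes too poor in UMIs to hold a cell, called empty here, held Ddx25 at 145, 8.39 and 117 CPM for WT, KO and KI. Such barcodes served here as a measure of the free RNA of a library. A level in cells at or below theirs may hold free RNA, and how much was not tested. In KO, Ddx25 was at 0.282 CPM in SP-like cells against 8.39 in empty barcodes, on 75 UMIs. The empty barcodes of KO thus held RNA that its kept cells do not account for, and its source was not tested. Their levels are therefore only a rough measure of free RNA.

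The promoters of 4 genes are shown because Ran and Nxt1 had their highest levels in spermatocyte clusters after cluster 12, Rasl2-9, the intronless copy of Ran, did so too, and Xpo1 had its highest level in cluster 12. Each runs from 250 bases before to 50 bases after the start of transcription in the RefSeq table for GRCm38.p6, written 5′ to 3′ on the strand of the gene. Capitals mark matches on either strand to the TATA box TATAAA, the box CCAAT, the GC box GGGCGG, the E-box CACGTG, the CRE site TGACGTCA and the MYB site AACNGTT, which do not contain each other but can overlap in part. Ran lies at chr5:129019906-129020205 on the plus strand, Rasl2-9 at chr7:5125901-5126200 on the minus strand, Nxt1, the first of its 2 listed starts, at chr2:148672365-148672664 on the plus strand, and Xpo1 at chr11:23255791-23256090 on the plus strand.
Ran: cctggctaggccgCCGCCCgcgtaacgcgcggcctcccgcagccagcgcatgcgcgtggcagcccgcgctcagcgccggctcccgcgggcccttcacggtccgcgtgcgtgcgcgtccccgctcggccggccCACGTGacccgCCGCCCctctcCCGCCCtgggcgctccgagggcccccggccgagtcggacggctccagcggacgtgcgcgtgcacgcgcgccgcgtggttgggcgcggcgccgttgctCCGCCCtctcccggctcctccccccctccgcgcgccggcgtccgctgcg
Rasl2-9: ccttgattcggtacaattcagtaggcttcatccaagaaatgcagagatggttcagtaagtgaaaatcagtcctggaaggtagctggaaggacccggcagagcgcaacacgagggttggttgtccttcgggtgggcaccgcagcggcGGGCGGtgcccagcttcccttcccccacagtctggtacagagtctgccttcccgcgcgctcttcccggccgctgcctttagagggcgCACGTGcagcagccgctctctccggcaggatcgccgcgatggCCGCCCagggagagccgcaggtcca
Nxt1: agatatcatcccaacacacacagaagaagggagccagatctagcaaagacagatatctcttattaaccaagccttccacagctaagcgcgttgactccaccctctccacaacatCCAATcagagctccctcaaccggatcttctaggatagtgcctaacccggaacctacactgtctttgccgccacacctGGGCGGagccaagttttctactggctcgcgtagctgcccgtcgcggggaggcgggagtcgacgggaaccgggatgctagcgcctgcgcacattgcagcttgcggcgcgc
Xpo1: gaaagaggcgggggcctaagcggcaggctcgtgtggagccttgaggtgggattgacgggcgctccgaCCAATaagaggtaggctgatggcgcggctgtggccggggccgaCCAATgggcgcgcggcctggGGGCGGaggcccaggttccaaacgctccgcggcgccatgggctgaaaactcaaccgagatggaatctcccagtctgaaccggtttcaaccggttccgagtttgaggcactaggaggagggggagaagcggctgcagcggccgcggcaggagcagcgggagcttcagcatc
The window of Ran held 4 matches to GGGCGG or its reverse complement and 1 to CACGTG, and that of Rasl2-9 held 2 and 1. Nxt1 had 1 CCAAT and 1 GGGCGG, and Xpo1 had 2 and 1. These are common letters, since GGGCGG was found in 35.66% of 32851 promoter windows, CCAAT in 37.41%, TATAAA in 13.62%, CACGTG in 7.15%, AACNGTT in 4.453% and TGACGTCA in 1.79%. None of the 4 windows held TATAAA, TGACGTCA or AACNGTT. The longest run shared by Ran and Rasl2-9 was 8 bases, as it was between Ran and Nxt1, against 11 bases between Ran and Xpo1.

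Xpo1, which encodes the exportin CRM1 (chromosome 11, 23256041 to 23298249, GRCm38, plus strand), was highest in cluster 12 and declined through the SP-like clusters. In cluster 12 it stood at 165, 146 and 167 CPM for WT, KO and KI, with overlapping intervals. Cluster 6 had 56.0, 53.2 and 59.4, cluster 13 had 15.2, 18.0 and 16.8, and cluster 2 had 9.24, 14.0 and 16.5 in WT, KO and KI. The order was thus the same in all 3 libraries as far as cluster 13, and clusters 13 and 2 were close in KO and KI. RS-like cluster 9 held 16, 16 and 22 UMIs of Xpo1, or 2.27, 3.68 and 5.22 CPM, below the 13.8, 21.5 and 28.3 of empty barcodes. So was cluster 2 in all 3 libraries, and cluster 13 in KO and KI. Relative to the median gene, the log2 change from cluster 12 to cluster 6 was -1.12, -1.06 and -1.09 in WT, KO and KI.

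Ran (chromosome 5, 129020069 to 129024323, plus strand), the small GTPase that sets the direction of transport through the pore, followed another course and had the highest levels of the 10. It stood at 757, 770 and 660 CPM in cluster 12 of WT, KO and KI, 1412, 1426 and 1402 in cluster 6, and 2011, 1980 and 2066 in cluster 13. Cluster 2 had 1775, 1989 and 1966, so the highest level was in cluster 13 in WT and KI and in cluster 2 in KO, where the intervals of both clusters overlapped. Ran was also among the 10 leading genes of cluster 2, although it took no part in the clustering. Levels in cluster 9 were 683, 834 and 926, and in cluster 7 they were 376, 512 and 505, all below the 1078, 1494 and 1191 of empty barcodes. Cluster 12 of all 3 libraries and cluster 6 of KO were below them too, and the part of free RNA in these levels was not tested. The intronless copy Rasl2-9 (chromosome 7, 5124938 to 5125950, minus strand) had 34.7, 45.7 and 12.2 CPM in cluster 12, then 354, 359 and 357 in cluster 6 and 604, 648 and 667 in cluster 13. Its level was higher in cluster 6 than in cluster 12 by 3.78, 3.37 and 5.24 on the log2 scale relative to the median gene in WT, KO and KI, against 1.34, 1.29 and 1.49 for Ran. Of 17 windows of 100 bases near the 3′ end of Rasl2-9, none matched a Ran transcript exactly and 4 matched within 3 mismatches, so a part of its reads could have been counted for Ran or left uncounted.

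Ranbp2 (chromosome 10, 58446920 to 58494356, plus strand), a large nucleoporin of the cytoplasmic filaments, was high in cluster 12, far lower in cluster 6, and lower again in cluster 9. It stood at 235, 259 and 259 CPM in cluster 12 of WT, KO and KI, and at 56.1, 55.6 and 62.7 in cluster 6. Clusters 13 and 2 had 53.9, 46.8 and 52.0, and 41.9, 45.1 and 51.0. In cluster 9 it was at 31.8, 32.2 and 43.0, close to the 30.2, 36.8 and 45.7 of empty barcodes. Cluster 1 of the RS-like class departed from cluster 9, with 131, 105 and 132. Relative to the median gene, RS-like and SP-like cells differed by 0.39, 0.29 and 0.31 on the log2 scale, within 1.5-fold in each library.

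**Figure D1:**
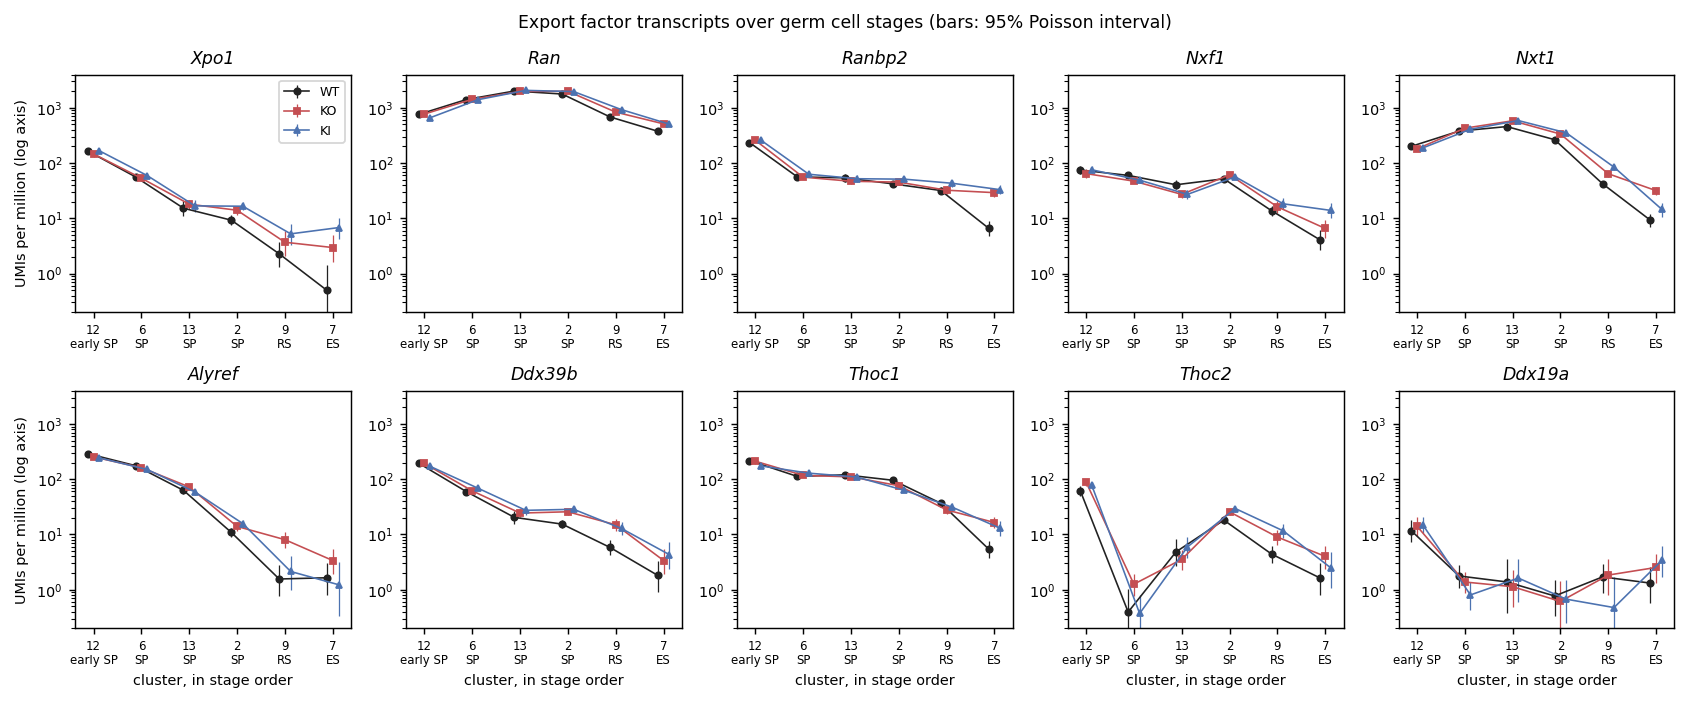
Level of each of the 10 export factor transcripts (vertical axis, CPM, log scale) in 6 clusters in stage order (horizontal axis) in WT (black circles), KO (red squares) and KI (blue triangles). Bars are exact 95% Poisson intervals. Ran and Nxt1 are highest in clusters 13 or 2, the other 8 are highest in cluster 12, and Thoc2 is near 0 in cluster 6.

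Nxf1 (chromosome 19, 8757073 to 8770922, plus strand), the bulk mRNA export receptor, had its lowest level of the spermatocyte clusters in cluster 13. Its levels were 74.7, 64.4 and 75.5 CPM in cluster 12 of WT, KO and KI, and 59.8, 47.0 and 49.0 in cluster 6. Cluster 13 had 40.4, 27.1 and 27.1, and cluster 2 had 51.9, 61.2 and 56.3. The lower level in cluster 13 than in cluster 2 was seen in all 3 libraries, and the intervals of both clusters were apart in KO and KI and overlapped in WT. Cluster 9 had 13.6, 16.1 and 18.3, below the 21.1, 31.7 and 28.5 of empty barcodes, and cluster 1 had 55.3, 36.3 and 44.5. The X-linked relative Nxf2 had 41.2, 94.4 and 65.7 CPM in cluster 12 of WT, KO and KI, then 0.592, 0.719 and 0.309 in cluster 6 and 7.99, 15.0 and 15.1 in cluster 2.

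Nxt1 (chromosome 2, 148672601 to 148676027, plus strand), the small partner of NXF1, had, as Ran did, its highest level in the middle of the series. It stood at 200, 180 and 187 CPM in cluster 12 of WT, KO and KI, 378, 427 and 409 in cluster 6, and 457, 582 and 588 in cluster 13, its highest level in all 3 libraries. Cluster 2 had 264, 335 and 353, and cluster 9 had 42.2, 63.9 and 84.3. So the partner was at many times the level of the receptor in clusters 6, 13 and 2 on the scale of 3′ UMIs. Empty barcodes held Nxt1 at 142, 261 and 197 CPM, above the level in cluster 9 of each library and in cluster 12 of KO and KI. A UMI of Nxt1 was found in 164 of 363 WT cells of cluster 9, 122 of 204 KO cells and 80 of 94 KI cells, whose depths differed. The X-linked relative Nxt2 had no more than 26.5 CPM in cluster 12 of any library and between 0.789 and 1.20 in cluster 6.

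Alyref (chromosome 11, 120592121 to 120598365, minus strand), the adaptor that joins TREX to NXF1, declined at each step over the spermatocyte clusters. Its levels in cluster 12 were 291, 254 and 244 CPM for WT, KO and KI, and in cluster 6 they were 176, 162 and 150. Cluster 13 had 62.9, 72.4 and 58.8, and cluster 2 had 10.9, 14.0 and 15.7. The step from cluster 13 to cluster 2 alone was -2.34, -2.24 and -1.78 on the log2 scale relative to the median gene in WT, KO and KI. Cluster 9 held 11, 35 and 9 UMIs, or 1.56, 8.05 and 2.14 CPM, under the 25.7, 29.8 and 32.3 of empty barcodes, as cluster 2 already was in all 3 libraries. The 35 UMIs of KO lay in 14 of 204 cells, with 9 in 1 cell.

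Ddx39b (chromosome 17, 35241746 to 35253707, plus strand), the helicase of TREX, declined over the same clusters from 195, 193 and 171 CPM in cluster 12 of WT, KO and KI to 59.5, 61.6 and 68.7 in cluster 6. Cluster 13 had 20.4, 24.4 and 27.3, and cluster 2 had 15.4, 25.8 and 28.6. The intervals of those 2 clusters overlapped in each library. Cluster 9 had 5.82, 15.0 and 12.8, below the 17.7, 24.5 and 29.0 of empty barcodes. Its paralog Ddx39, with 321, 267 and 292 in cluster 12 and 112, 122 and 128 in cluster 6, declined as well, to 6.68, 10.4 and 15.2 in cluster 9.

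Thoc1, a core THOC subunit, lies on chromosome 18 and was at close levels in clusters 6 and 13. It stood at 218, 212 and 174 CPM in cluster 12 of WT, KO and KI, 112, 118 and 129 in cluster 6, and 120, 110 and 110 in cluster 13. Cluster 2 had 95.7, 76.4 and 62.7, lower than cluster 6 by -0.88 on the log2 scale relative to the median gene in KI, past 1.5-fold, and by -0.46 and -0.04 in KO and WT. Cluster 9 had 36.7, 27.8 and 31.1. Empty barcodes held 60.7, 58.2 and 58.0. Its locus overlaps Usp14 on the other strand by 2424 bases.

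Thoc2 (chromosome X, 41794991 to 41920674, minus strand), which encodes the scaffold of the THOC complex, is the X-linked gene among the 10, and it had a course of its own. For WT, KO and KI its level in cluster 12 was 61.8 (50.5 to 74.8), 88.8 (76.1 to 103) and 77.5 (66.9 to 89.4) CPM. Cluster 6 held only 4, 21 and 6 UMIs of it, or 0.394 (0.107 to 1.01), 1.26 (0.779 to 1.92) and 0.371 (0.136 to 0.808) CPM. It then stood at 4.84, 3.54 and 5.96 in cluster 13 and at 18.2 (15.7 to 21.0), 25.6 (22.3 to 29.4) and 29.5 (26.0 to 33.2) in cluster 2. So the transcript was near 0 in the Piwil1-high cluster of each library, below the 4.37, 7.72 and 8.23 of empty barcodes, and was above them again in cluster 2. Relative to the median gene the change from cluster 12 to cluster 6 was -6.68, -5.71 and -7.19 on the log2 scale in WT, KO and KI. Cluster 9 had 4.40, 8.97 and 11.6 CPM and cluster 7 had 1.65, 4.01 and 2.46. Leydig-like cells, somatic cells that keep their X chromosome active, held 14, 22 and 64 UMIs of Thoc2, or 107, 108 and 154 CPM.

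Most X-linked genes did the same between these clusters. Among genes with at least 20 CPM in cluster 12 of every library, the 118 X-linked ones had a median log2 change of -6.27, -6.02 and -6.77 in WT, KO and KI, and the 6714 autosomal ones had -0.25, -0.25 and -0.28. Thoc2 was thus close to the median of its chromosome, and so was Nxf2, at -5.57, -6.58 and -7.20. The gene BC005561 (chromosome 5, 104508352 to 104522611, plus strand), an autosomal relative of Thoc2, kept 85.2, 92.2 and 90.3 CPM in cluster 6 of WT, KO and KI, after 190, 177 and 171 in cluster 12. Its changes of -0.72, -0.54 and -0.52 went past 1.5-fold in WT alone. Of 255 windows of 100 bases near the 3′ ends of Thoc2 transcripts, none matched BC005561 within 3 mismatches, so reads from these ends could be assigned to one gene or the other.

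**Figure D2:**
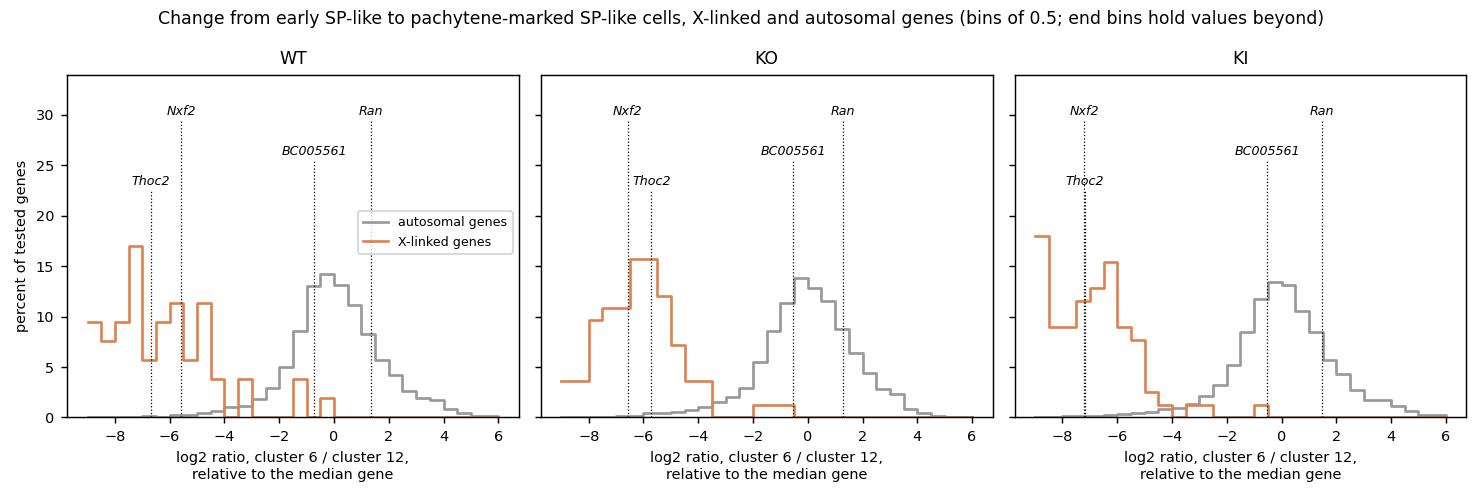
Percent of tested X-linked (orange) and autosomal (grey) genes (vertical axis) by log2 ratio of cluster 6 to cluster 12 relative to the median gene (horizontal axis, bins of 0.5, with values beyond the ends in the end bins) in WT, KO and KI. Dotted lines mark 4 genes. Thoc2 and Nxf2 lie among the X-linked genes, BC005561 between -0.72 and -0.52, and Ran between 1.29 and 1.49.

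Ddx19a (chromosome 8, 110974996 to 110997800, minus strand), a helicase of the cytoplasmic face of the pore, had the fewest UMIs of the 10 in cluster 12. Cluster 12 held 20, 28 and 37 UMIs of it in WT, KO and KI, or 11.8, 14.2 and 15.1 CPM, and cluster 6 had 1.78, 1.38 and 0.804. From there on it stayed between 0.475 and 3.39 in clusters 13, 2, 9 and 7 of all 3 libraries, on no more than 12 UMIs in a cluster of any library. Its neighbour and paralog Ddx19b (chromosome 8, 111003188 to 111031751, minus strand) stood at 211, 149 and 155 CPM in cluster 12, 168, 150 and 152 in cluster 6 and 33.0, 37.7 and 30.2 in cluster 9. Nearly all UMIs of the pair were thus counted for Ddx19b. Of 51 windows at the 3′ ends of Ddx19a transcripts, 1 was identical to a Ddx19b transcript and 5 matched within 3 mismatches. These lay in the transcripts of 754 and 731 bases, with 0 of 17 windows in that of 2547 bases. So UMIs of the shorter transcripts may have been left uncounted.

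**Figure D3:**
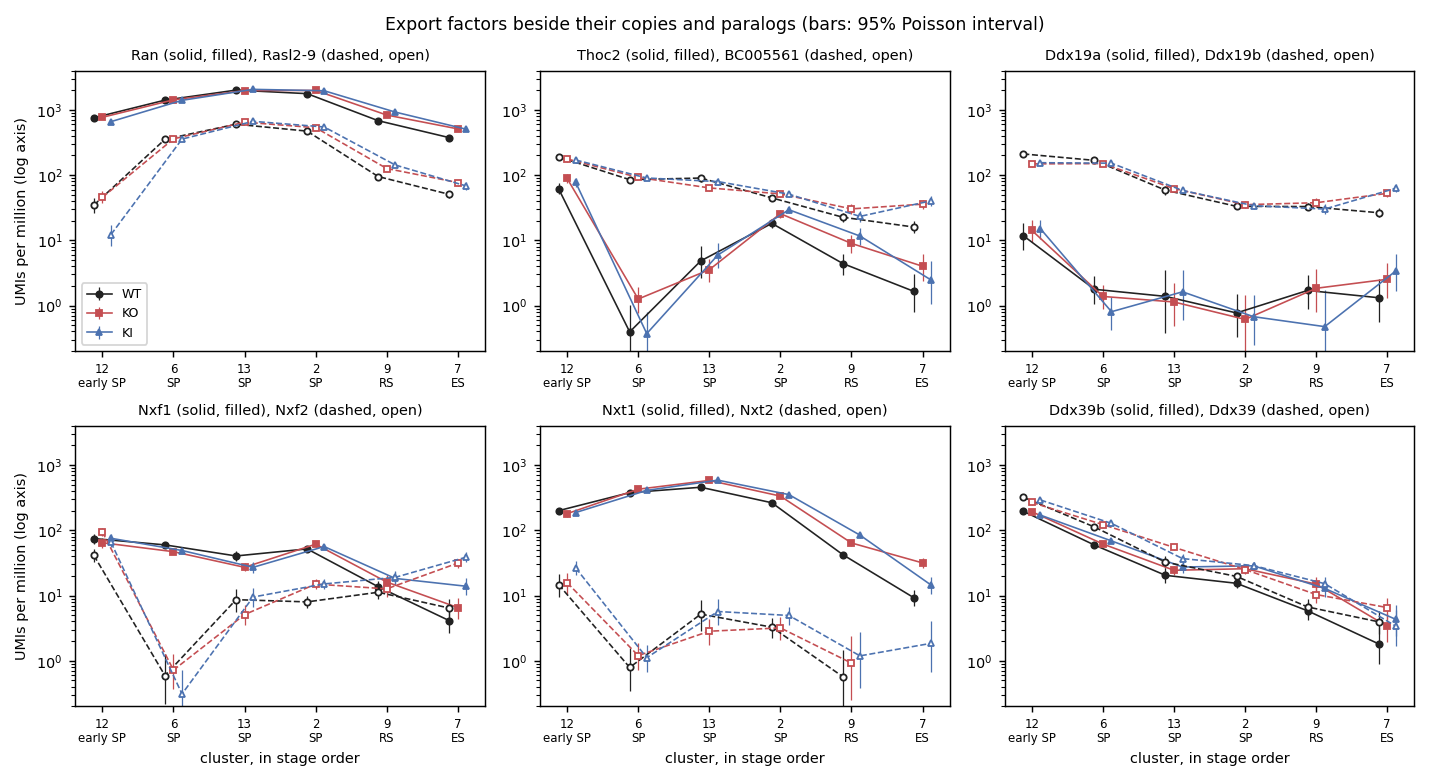
Levels of 6 export factor transcripts (filled symbols, solid lines) and of a copy or paralog of each (open symbols, dashed lines) in CPM (log scale) over 6 clusters in stage order, in WT (black), KO (red) and KI (blue), with exact 95% Poisson intervals. Rasl2-9 runs below Ran with a steeper climb, BC005561 stays high where Thoc2 is near 0, and Ddx19b stands above Ddx19a in every cluster.

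Inside cluster 12 several members differed between the SG-like and the early SP-like cells. In WT, KO and KI, Xpo1 was higher in the 99 SG-like cells, with 257, 259 and 242 CPM, than in the 307 early SP-like cells, at 147, 123 and 146, with the intervals apart in each library. Nxt1 was the reverse, at 78.4, 97.2 and 67.0 in SG-like and 224, 197 and 221 in early SP-like cells, again with intervals apart. Alyref was at 367, 336 and 324 against 276, 237 and 221, with intervals that met in WT alone. Thoc2 was at 132, 150 and 80.0 against 47.9, 76.0 and 76.8, apart in WT and KO and overlapping in KI. Nxf1 was close in both, at 74.8, 70.7 and 78.1 against 74.7, 63.1 and 74.7.

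To count these courses, a gene was tested in a contrast of stages where its mean over both was at least 20 CPM in all 3 libraries, and called where it was at least 1.5-fold from the median gene in the same direction in each library. From early SP-like to SP-like cells 9 of the 10 were tested in every library, and 2 were called higher, Ran and Nxt1, where 33.5% of 6997 genes were. Another 5 were called lower, Xpo1, Ranbp2, Alyref, Ddx39b and Thoc2, where 31.5% of genes were, and Nxf1 and Thoc1 were not called. Thoc2 was under 20 CPM in SP-like cells of all 3 libraries and passed the minimum only through early SP-like cells. The median change of these 9 was -0.98, and that of 93 tested genes of wider export lists was -0.32, with 16 called higher and 36 lower. Between RS-like and SP-like cells 7 were tested, and 6 of them, Ran, Nxf1, Nxt1, Alyref, Ddx39b and Thoc1, were called lower in RS-like cells, where 31.3% of 6166 genes were. None was called higher, where 34.1% of genes were, and Ranbp2 was not called. Alyref and Ddx39b, and in WT Nxf1, were under 20 CPM in RS-like cells and passed the minimum only through their level in SP-like cells. With the mean of per-cell levels in place of sums, 3 were called lower, Ran, Nxt1 and Alyref, and 1 was called higher, Ranbp2, beside 29% and 36.5% of 6366 genes. The call of Ran was also lost at resolution 0.6, with cells called by UMI total alone, and without cluster 1 or cluster 2, and without cluster 2 that of Nxf1 was lost and Xpo1 was called lower. The changes were -0.88, -0.71 and -0.65 for Ran, -2.49, -2.03 and -2.02 for Nxt1, -0.95, -0.79 and -0.78 for Nxf1 and -4.68, -3.08 and -4.91 for Alyref in WT, KO and KI. A minimum of 50 CPM left 3 calls, since fewer genes were tested.

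Step by step, 2 members were called higher and 4 lower from cluster 12 to cluster 6, where 32.6% and 29.2% of 6813 genes were. The higher ones were Ran and Nxt1 and the lower ones Xpo1, Ranbp2, Ddx39b and Thoc2. The step to cluster 13 brought 3 calls lower, Xpo1, Alyref and Ddx39b, against 15.7% of 5597 genes, and none higher, against 12.3%. From cluster 13 to cluster 2 the calls were Nxt1 and Alyref, both lower, against 15.3% of 5658 genes, with none higher, against 22.5%. In the step from cluster 2 to the spermatids of cluster 9 the lower ones were Ran, Nxf1, Nxt1 and Thoc1, against 21.6% of 5493 genes, and none was higher, against 29.9%. Nxt1 alone was called in the step to cluster 7, again lower, where 16.8% of 4502 genes were lower and 20.9% higher. In single libraries Nxf1 was past the fold before the spermatids, lower in cluster 13 than in cluster 6 by -0.70 in KO and -0.74 in KI, and so was Thoc1 in KI, lower in cluster 2 than in cluster 13 by -0.69. Nxf1 was then higher in cluster 2 than in cluster 13, by 1.30 in KO and 1.17 in KI. From cluster 6 to cluster 13, Ran was higher by 0.60 in WT and 0.67 in KI, and Nxt1 by 0.63 in KI. Some of these members were admitted by the higher cluster alone, since their level in the lower one was under 20 CPM. They were Thoc2 at the first step, Xpo1 at the second, Alyref at the third and Nxf1 at the fourth, in all 3 libraries, and Nxt1 at the last in 2 of 3, so the step counts support nothing by themselves.

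The wider lists held 115 export genes, of which 108 were in the tables and 69 could be tested between RS-like and SP-like cells. Of these, 10 were higher and 34 lower in RS-like cells, with a median change of -0.72 against -1.05 for the 7 tested members and 0 by construction for all genes. Among 9 genes of the TREX list 5 were lower and none higher, and among 9 of the cap-binding and exon junction list 7 were lower and none higher. Of the 34 lower genes 16 were under 20 CPM in RS-like cells of all 3 libraries and passed the minimum only through SP-like cells, among them 2 of the 5 (Ddx39 and Sarnp) and 4 of the 7 (Casc3, Rbm8a, Rnps1 and Srrt), while of the 10 higher genes 1, Nup43, passed only through RS-like cells. The counts are thus a description and support no direction of a list. The importins and other exportins were divided, with 3 higher and 4 lower of 12, as were the nucleoporins, with 4 higher and 9 lower of 19. The other genes of the Ran cycle had 2 higher and 4 lower of 8, where 5 of 8 had been higher in SP-like than in early SP-like cells, beside 33.5% of all genes there.

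**Figure D4:**
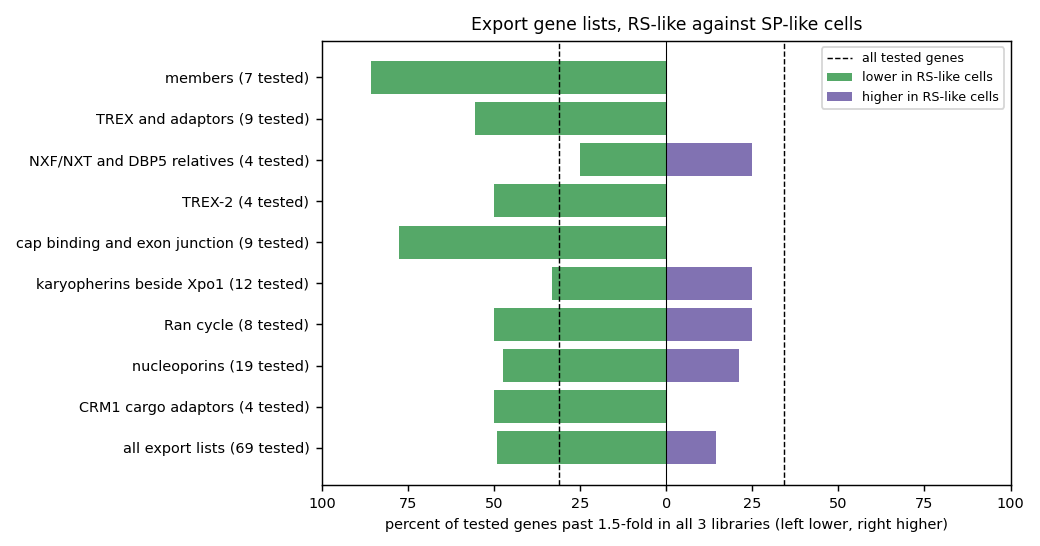
Percent of tested genes called lower (green, to the left) or higher (purple, to the right) in RS-like than in SP-like cells in all 3 libraries (horizontal axis), for the 10 members and the export gene lists (vertical axis, number tested in brackets). Dashed lines mark the percent over all tested genes, 31.3 lower and 34.1 higher. The members' bar rests on 6 of 7 genes and the bar for all lists on 34 lower and 10 higher of 69, of which 16 and 1 passed the minimum only through the higher class.

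Between genotypes the tested members stayed within 1.5-fold in SP-like cells taken as a class. Thoc2 and Ddx19a were under the minimum of 20 CPM there and were not tested. SP-like cells had 8 of the 10 above the minimum, and none went past 1.5-fold in KO or KI relative to the median gene, where 0.731% of 6291 genes were higher and 8.57% lower in KO, and 0.978% of 6338 higher and 7.76% lower in KI. Ran, with 1647, 1693 and 1662 CPM in WT, KO and KI, differed from WT by -0.01 in KO and -0.05 in KI on the centred log2 scale. Thoc1 had 106, 105 and 106. The ratios of the 8 ran from -0.27 for Nxf1 to 0.32 for Nxt1 in KO, and from -0.22 for Nxf1 to 0.47 for Ddx39b in KI. Early SP-like cells had no member past the fold among 9 tested, where 4.96% of 7467 genes were higher and 3.31% lower in KO, and 3.17% of 7404 higher and 3.42% lower in KI. Cluster 6 had none either among 8 tested, where 0.28% and 0.857% of 6066 genes were higher and lower in KO and 0.591% and 1.2% of 6092 in KI.

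Inside single SP-like clusters some members did pass. The SP-like clusters were mixed in other proportions in the 3 libraries, with 707 of 1115 WT, 554 of 1179 KO and 270 of 508 KI cells in cluster 2. Nxf1 was lower than WT in cluster 13, with 117, 191 and 100 UMIs in WT, KO and KI, or 40.4, 27.1 and 27.1 CPM, by -0.59 in both mutants, where 3.73% of genes were lower in KO and 2.89% in KI. The mutants were there below the 31.7 and 28.5 of their own empty barcodes, and WT was above its 21.1. No member was higher there, against 3.33% and 2.03%. Ddx39b was higher in cluster 2, where its 15.4, 25.8 and 28.6 CPM gave 0.69 in KO and 0.82 in KI, against 3.22% and 3.83% of genes. It was under 20 CPM in WT and passed the minimum only through the mutants, and its levels were close to the 17.7, 24.5 and 29.0 of empty barcodes, in the same order. Thoc2 in that cluster, also under 20 CPM in WT, was past the fold in KI, at 0.63, and not in KO, at 0.45. Thoc1, with 995, 623 and 558 UMIs, was lower in KI, at -0.67, and at -0.37 in KO, where 6.55% of genes were lower in KO and 7.78% in KI. The summed level of 14 ES markers in cluster 2, which moved with these, was 5067, 1989 and 1434 CPM in WT, KO and KI, with none of the 14 at 0, and the part of these markers and of free RNA in the results was not tested.

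**Figure D5:**
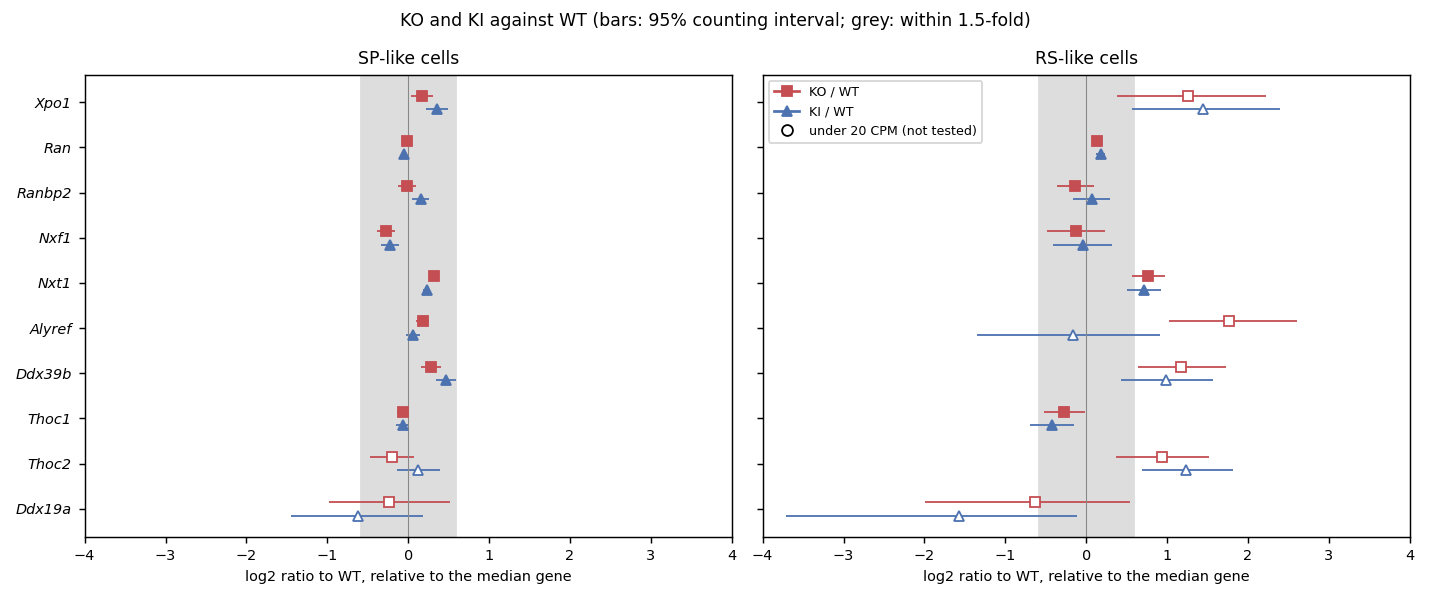
Log2 ratio of KO (red squares) and KI (blue triangles) to WT relative to the median gene (horizontal axis) for the 10 transcripts (vertical axis) in SP-like (left) and RS-like cells (right). Bars are 95% counting intervals, the grey band is within 1.5-fold, and open symbols are genes under 20 CPM. In SP-like cells all filled symbols lie in the band, and in RS-like cells Nxt1 lies outside it, at 0.77 and 0.71.

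In RS-like cells 5 members could be tested and Nxt1 was called higher in both KO and KI. Nxt1 had 354, 454 and 397 UMIs in WT, KO and KI, or 42.8, 82.1 and 80.5 CPM. The median tested gene was shifted by 0.17 in KO and 0.20 in KI, and relative to it the log2 ratio of Nxt1 was 0.77 (0.57 to 0.97) in KO and 0.71 (0.50 to 0.92) in KI. This 1 of 5 stands beside 12.0% of 5892 genes called higher in KO and 14.1% of 5857 in KI. None of the 5 was lower, where 14.4% and 18.1% of genes were. Ran was at 642, 795 and 833 CPM, with ratios of 0.14 and 0.18, and Ranbp2 was at 46.6, 47.7 and 56.0, with -0.13 and 0.07. The ratios of Nxf1 were -0.12 and -0.04, and those of Thoc1 were -0.27 and -0.42.

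The difference in Nxt1 moved with several other measures. In empty barcodes Nxt1 was at 142, 261 and 197 CPM for WT, KO and KI, so that WT was lowest there too. The 15 spermatocyte markers, none at 0 in any library, summed to 2088, 2916 and 2901 CPM in RS-like cells of WT, KO and KI. Of their 12 tested genes 6 were called higher and 1 lower in KO, and 3 higher and 2 lower in KI. The 14 ES markers summed to 43008, 16344 and 11763, with 9 of 14 called lower in KO and 10 of 14 in KI, and the 16 RS markers summed to 10423, 11226 and 10912, with none called. Among 11 stromal and myoid markers, of which 4, 1 and 4 were at 0, the sums were 14.1, 62.6 and 59.8, and the 1 that could be tested was higher in both mutants. The median mitochondrial percent of RS-like cells was 0.0114, 0.144 and 0.0623 in WT, KO and KI, and that of all kept cells 0.0582, 1.63 and 1.32. The part of these in the result was not tested. Within cluster 9 alone the ratio of Nxt1 was 0.42 in KO, short of 1.5-fold, and 0.78 in KI, where 11.5% and 15.4% of genes were higher and 15.8% and 19.9% lower. Cluster 1 had 57, 176 and 42 UMIs, or 46.3, 149 and 58.4 CPM, so the call in KO rested on that cluster of few UMIs per cell, of which KI had too few for a comparison. There KO was also past the fold for Ran, higher, with 501 UMIs in WT and 773 in KO, and for Nxf1, lower, with 68 and 43. The quartiles of the ratios of all 6971 genes tested there were -0.44 and 0.43, and their 5% and 95% points were -1.15 and 1.09. Ratios past the fold were thus common in that cluster in both directions, and these calls set no member apart. Where the libraries were clustered without being aligned to each other, the ratios of Nxt1 were 0.25 and 0.04, and neither was called. Thoc1 was then called lower in KI, beside 11.6% of 6006 genes. With cells called by UMI total alone, Nxt1 was not called in KO and Thoc1 was called lower there, beside 15.5% of 5592 genes. With cluster 7 counted as RS-like, Nxt1 was not called in KI. With no filter on low counts the ratio of Nxt1 in KO was 0.57, short of 1.5-fold, and that in KI was 0.65.

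The other 5 members were under 20 CPM in RS-like cells and were not tested. Xpo1 had 17, 31 and 32 UMIs in WT, KO and KI, with ratios of 1.26 (0.38 to 2.22) and 1.44 (0.57 to 2.40). Ddx39b had 47, 80 and 64 UMIs, with 1.17 (0.64 to 1.73) and 0.99 (0.43 to 1.57), and Thoc2 had 45, 65 and 73, with 0.94 (0.37 to 1.52) and 1.24 (0.69 to 1.81). These intervals cover counting error only. With no filter on low counts, 27.6% of 22559 genes were at least 1.5-fold higher in KO and 26.1% of 22161 in KI. Alyref had 20, 52 and 12 UMIs, and the ratios of 1.77 and -0.17 pointed apart in KO and KI. Ddx19a had 19, 9 and 4. Xpo1, Ddx39b and Alyref were below their level in the empty barcodes of each library, where Xpo1 was also lowest in WT and highest in KI. Thoc2 was above it, at 5.44, 11.8 and 14.8 CPM against 4.37, 7.72 and 8.23.

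Cluster 7, the ES-like cluster with cells of all 3 libraries, held 2282, 2427 and 1639 UMIs of Ran in WT, KO and KI and at most 150 of any other member in a library. The median tested gene there was shifted by 0.58 in KO and 0.61 in KI on the log2 scale, while the 14 ES markers summed to 255343, 97174 and 97551 CPM in WT, KO and KI. Nxt1 had 56, 150 and 47 UMIs in WT, KO and KI, or 9.22, 31.6 and 14.5 CPM, and was called higher in KO, by 1.19 relative to the median gene, where 27.9% of 4575 genes were, and 25.1% lower. It passed the minimum only through KO. In KI its ratio was 0.05, but it was under the minimum in that comparison and not tested. Of 4613 genes tested there, 27.9% were called higher and 24.5% lower. Ranbp2, with 40, 138 and 107 UMIs, or 6.59, 29.1 and 33.0 CPM, had ratios of 1.55 and 1.70 but was under the minimum in the comparison. Over the whole ES-like class Nxt1 had 198, 209 and 52 UMIs and was called higher in KO, at 0.74, where 32.4% of 4480 genes were higher and 33.5% lower, again only through KO, as WT was at 11.2 CPM. In cluster 7 both transcripts were below their level in the empty barcodes of each library. There 12 of 16 RS markers were called higher in KO and in KI, and the levels of the members cannot be told apart from a difference in the age of the spermatids.

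Fewer genes were called between KI and KO than between either and WT. In RS-like cells 1.05% of 6077 genes were higher and 3.7% lower in KI than in KO, and in SP-like cells 0.431% and 0.447% of 6259 were. None of the tested members, 5 in RS-like and 8 in SP-like cells, was past the fold. The ratio of KI to KO for Nxt1 in RS-like cells was -0.05, with an interval from -0.25 to 0.14. In cluster 7 Nxt1 was lower in KI than in KO, by -1.13 (-1.65 to -0.66), where 2.13% of 5170 genes were lower and 2.88% higher, and it passed the minimum only through KO.

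The wider export lists were divided between directions in RS-like cells. Of 51 tested genes 6 were higher and 5 lower in KO, with a median ratio of 0.13, and 7 were higher and 5 lower in KI, with 0.08. These shares lay near or below the 12.0% and 14.4% of all genes higher and lower in KO and the 14.1% and 18.1% in KI, so nothing sets the lists apart. Genes past 1.5-fold in the same direction in both mutants were 8, beside 9.43% of 5728 genes higher in both and 12.7% lower in both, and they are named for their values only. Lower in both were Thoc7, a THOC subunit, at 62.0, 26.0 and 12.6 CPM for WT, KO and KI, which in KI passed the minimum only through WT, and Ncbp2, a cap-binding subunit, at 147, 45.2 and 43.0. Rcc1, which loads Ran with GTP, was at 127, 84.8 and 66.9, and the cap-binding factor Eif4e was at 391, 136 and 81.5. Higher in both were Chtop, a TREX adaptor, at 23.2, 54.4 and 56.4, and Eif4a3, of the exon junction complex, at 15.5, 37.2 and 30.8, which passed the minimum only through the mutants. The nucleoporin gene Nup50, at 93.1, 161 and 183, and Elavl1, which encodes an RNA-binding protein that can leave the nucleus through CRM1, at 114, 208 and 217, completed them. In WT the lower genes Rcc1 and Eif4e were at a higher level in ES-like cluster 7 than in cluster 9, at 344 against 114 and 985 against 376 CPM, and Chtop, Eif4a3, Nup50 and Elavl1 were at a lower one. Thoc7 and Ncbp2 were lower in cluster 7 than in cluster 9, at 19.1 against 63.6 and 44.9 against 155.

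The genes whose levels followed each member most closely were found by Pearson's r of log levels over 24 points, 8 classes in each of 3 libraries, among 8406 genes. The points share libraries and are not independent. Beside the germ cell classes they took in Sertoli-like, stromal and myoid-like, macrophage-like and Leydig-like cells. These somatic classes held between 20006 and 1000686 UMIs in a library, so low counts entered r. The values therefore do not describe courses over germ cell stages alone. Ran was most like Tcp1, a subunit of the TRiC chaperonin, with r of 0.9771, and Nxt1 was most like 4933416C03Rik, with 0.9772. Thoc1 was closest to St13, a cofactor of HSP70, at 0.969. For Xpo1 the closest was Hnrnpr, an RNA-binding protein gene, at 0.9651, for Ddx39b it was Atp2a2, a calcium pump gene, at 0.9729, and for Alyref it was Mtx2 at 0.9619. Ranbp2 followed the helicase gene Ddx50 at 0.9505, Thoc2 followed Cd2ap at 0.9543 and Nxf1 followed Hsp90ab1 at 0.9353. Ddx19a reached only 0.7816, with Cisd2, on few UMIs.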

How the data were processed

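Single-cell 3′ RNA was measured in mouse testis, in 1 library for each genotype. The authors aligned the reads to mm10 with Cell Ranger and deposited UMI counts of each gene in each barcode, unfiltered and not normalised. The submitters' processing notes name version 2.1.1 and the file header version 4. The members and lists were chosen with earlier results of these data known, and the rule by which markers name a cluster was chosen after the clusters were seen.

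From the counts, cells were called with 3000 expected cells and then by comparison with barcodes ranked 45000 to 90000, which are the empty barcodes of the text, with at least 500 UMIs and up to 20000 candidates, a limit reached in KO. Cells with over 500 genes and under 10% mitochondrial UMIs were kept, aligned between libraries with Seurat 5.3.0 and sctransform 0.4.2 in R 4.3.3 on 2000 genes and 100 components, and clustered with leidenalg 0.10.2 at resolution 0.3. The 10 members and the export lists were left out of the clustering genes. Scrublet, run in scanpy 1.11.5, marked 142, 5 and 4 cells of WT, KO and KI. None was removed, and whether doublets of KO and KI were missed was not tested. Libraries shared between 8 and 37 barcodes.

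UMIs were summed by class or cluster and library. Ratios had 0.5 UMI added, were set relative to the median gene, and were given for genes with a mean of at least 20 CPM (UMIs in 1000000 of the class), in classes or clusters with at least 1000000 UMIs in every library. Past 1.5-fold was the rule for a call, with no test and no p-value, as there was 1 library per genotype. Sums have exact Poisson and ratios exact conditional binomial 95% intervals. The procedure was tested on simulated counts, where 181 of 200 changed genes were recovered in the KO comparison of RS-like cells and 183 of 200 in that of KI. Of the unchanged genes 0 of 5415 and 0 of 5406 were called. This checks the computation only and cannot tell a difference of genotype from one of library. All 10 members were named. Genes of the lists were named if past the fold in the same direction in KO and KI in RS-like cells, or if a copy or paralog of a member. Sums and ratios were computed with scipy 1.17.1, pandas 2.3.3 and numpy 2.4.6 under Python 3.11.15, and plots with matplotlib 3.10.9. The labels and the methods differ on the instrument, the age and the number of mice.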

Additional observations from a re-analysis of the deposited data

Results flagged for a closer look

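The 10 transcripts were also found outside the cells. Barcodes too poor in UMIs to hold a cell had 11501 UMIs of the 10 together in WT, 17570 in KO and 12398 in KI, far above the 3 counts that a count of 0 allows. They were flagged because these barcodes are outside the cells whose groups are compared, and they served only as a level of free RNA and in calling cells. Most were Ran, at 1078, 1494 and 1191 CPM, followed by Nxt1, at 142, 261 and 197. No group had the 4 or more samples needed to look for a sample apart from the others, and no difference between effects was tested.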

How the results depend on the processing

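No paired analysis was possible because each genotype had 1 library, and for the same reason no replicate could be left out. As reported, 1 member was past 1.5-fold in RS-like cells of KO and 1 of KI, 0 in SP-like cells of either, 6 in all 3 libraries between RS-like and SP-like cells and 1 (Nxt1 in ES-like cells of KO) over 6 other class comparisons, which were KO and KI against WT in early SP-like and ES-like cells and KI against KO in SP-like and RS-like cells, and 60 levels were compared. With no filter on low counts the RS-like counts were 5 in KO (Xpo1, Alyref, Ddx39b and Thoc2 higher, Ddx19a lower, and Nxt1 lost) and 5 in KI (the same with Nxt1 in place of Alyref) and that of the other classes was 12. At that setting 27.6% of 22559 genes were higher and 26.7% lower in RS-like cells of KO, and 26.1% of 22161 higher and 29.4% lower in KI. A minimum of 50 CPM gave 3 between RS-like and SP-like cells and 0 in the other classes. Clustering without integration gave 0 in RS-like cells of KO and 0 over the 4 other comparisons that could be run, and left 35 levels within the original interval. There the 1 call in RS-like cells of KI was Thoc1, lower, as was the 1 call of KO where cells were called by UMI total alone. These stand beside 11.6% of 6006 genes lower in KI and 15.5% of 5592 lower in KO. The mean of per-cell levels gave 1 in SP-like cells of KI (Ddx39b), 5 in the other classes and 15 levels within the interval, and between RS-like and SP-like cells 3 lower (Ran, Nxt1, Alyref) and 1 higher (Ranbp2). With these means 1.22% of 6375 genes were higher in SP-like cells of KI. Between RS-like and SP-like cells 29% of 6366 genes were lower and 36.5% higher. Nxt1 was also lower in KI than in KO in ES-like cells, which was compared under no alternative. The count of the other classes was 3 scaled to class totals, 3 with cells called by total alone, 3 at resolution 0.6, 2 under 5% mitochondrial UMIs and 0 with TMM, and resolution 0.6 kept 36 levels. All counts of the other classes pool early SP-like and ES-like comparisons, which differ widely in the share of all genes called. No such share stands beside them, so they say nothing about the members. Of alternatives chosen after seeing the data, RS-like cells without cluster 1 gave 0 in KO, cluster 7 counted as RS-like gave 0 in KI, 0 over the 4 other comparisons that could be run and 39 levels, and SP-like cells without cluster 2 kept 35 levels. Between RS-like and SP-like cells 5 calls were made at resolution 0.6, with cells called by total alone, without cluster 1 and without cluster 2, each without Ran, and 5 with cluster 7 counted as RS-like, without Ddx39b. The cause of these differences was not tested, except that more or fewer genes pass a changed minimum. The ratio of Nxt1 in RS-like cells ran from 0.25 to 1.46 in KO and from 0.04 to 0.78 in KI over all settings. No called ratio changed sign, but some ratios that were not called did. Of 40 ratios, 8 changed sign with SP-like cells without cluster 2, 7 scaled to class totals and 6 without integration. With 1 CPM added 0 did. Counts limit Xpo1, Alyref, Ddx39b, Thoc2 and Ddx19a in spermatids, where they had between 4 and 80 UMIs.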
